A study of Mus musculus with 12 samples.

Results

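The 9 genes described here encode enzymes of mitochondrial fatty acid oxidation: Cpt1a, Cpt2, Crat, Acadvl, Acadl, Acadm, Hadha, Hadhb and Etfdh. They were chosen by symbol from the 12960 genes of the deposited counts, by a rule that uses no measured value but with earlier results of these data known, and 9 of the 9 were among the 10822 genes that passed the filter on low counts and were tested. RNA was sequenced from bone marrow-derived macrophages (BMDMs), which are macrophages grown from mouse marrow with medium of L929 cells as a source of M-CSF. The cells were from wild type (WT) mice or from mice lacking the β1 subunit of AMPK throughout the body (AMPKβ1-/-), and they received vehicle (DMSO at 0.1%) or PF-06409577 (PF) at 10 μM over 6 h, and each of the 4 groups has 3 libraries. PF is a direct activator of AMPK complexes that hold the β1 subunit. The age and sex of the marrow donors are not given in the sources used here, nor is it stated whether the 3 libraries of a group came from separate mice or cultures, so that p values measure the spread between these libraries. Library numbers 1 to 3 only name the libraries of a group.

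Long-chain fatty acids enter mitochondria as carnitine esters and are then shortened there in repeated cycles of oxidation, hydration, oxidation and cleavage. The electrons pass to the respiratory chain and the acetyl-CoA to the citrate cycle. AMPK is known to promote entry of fatty acids by phosphorylating acetyl-CoA carboxylase, which lowers malonyl-CoA, the inhibitor of CPT1, and in macrophages fatty acid oxidation is much studied in relation to alternative activation.

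In WT BMDMs given PF, the transcript of the entry enzyme Cpt1a fell by 0.40 on the log2 scale, while those of Etfdh and Acadl rose by 0.47 and 0.32. Genes are said to have risen or fallen where the adjusted p was below 0.05 in edgeR's quasi-likelihood test with Benjamini-Hochberg adjustment over all tested genes, of which 6.99% rose and 8.95% fell in that comparison. The other 6 genes did not pass. The call of Acadl was lost in 10 of 21 alternative fits, that of Etfdh in 2 and that of Cpt1a in 0. With a trend in GC content and length removed, Acadl had 0.0085 (edgeR adjusted p = 0.968), while Cpt1a and Etfdh kept their calls. In AMPKβ1-/- BMDMs given PF, 0 of the 9 passed by edgeR, where 0.0554% of all genes rose and 0% fell. The difference between the 2 genotypes' responses passed for 0 of the 9, against 0.416% of all genes, so the responses are not shown to differ. Between genotypes with vehicle, Acadm and Etfdh were higher and Crat, Acadvl and Hadha lower in AMPKβ1-/- BMDMs, where 29.7% and 30% of all genes were higher and lower. In RNA of whole cultures, fewer cells of a kind and less RNA per cell cannot be told apart. A differentially expressed gene (DEG) in the study's methods must also have a log2 fold change beyond 0.8. By edgeR 0 of the 9 met this in any comparison, against 1.52% of all tested genes for PF in WT, 0.0554% for PF in AMPKβ1-/-, 0.157% for the difference between these responses, and 17.8% and 14.3% for AMPKβ1-/- against WT with vehicle and with PF.

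Libraries held 8935609 to 14358180 counts assigned to genes, and a member had between 191 (Etfdh) and 3324 (Cpt1a) counts in a library. Levels are given as CPM, the counts relative to the library size scaled by edgeR's TMM method, and a count of 0 would allow 3 counts, or 0.196 to 0.321 CPM. Prkab1, the gene of the deleted subunit, had 43.4 to 45.3 CPM in WT with vehicle and 6.05 to 8.39 CPM in AMPKβ1-/- with vehicle. All 8 macrophage markers were present, with summed levels of 25191 to 29681 CPM over the libraries. With PF in WT 3 of them fell (Csf1r, Itgam and Cd14), against 8.95% of all genes. After removal of a trend in GC content and length 4 fell (Adgre1 too), against 3.95% of all genes. Between genotypes with vehicle 2 of the 8 were higher (29.7% of all genes) and 4 lower (30%) in AMPKβ1-/-, Cd68 by -0.72. With that trend removed 0 were higher (13.9%) and Cd68 alone was lower (20.2%), by -0.40 (edgeR). Of the markers of other cells, 5 of 8 granulocyte genes (summed level 0.424 to 1.39 CPM over the libraries), 1 of 6 lymphoid genes (Cd4, 12.7 to 14 CPM in WT and 5.65 to 6.58 CPM in AMPKβ1-/-), 5 of 6 fibroblast genes (0.923 to 8.66 CPM, the highest value in AMPKβ1-/- with vehicle) and 2 of 4 dendritic cell genes (0 to 0.554 CPM) were in the counts, and their part in the results was not tested.

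The libraries also differed in how counts followed the GC content of the transcripts. Relative to the mean of the 12 libraries, log2 levels changed by 0.53, 0.16, -0.27 and -0.43 per 10 percentage points of GC content in WT vehicle, WT PF, AMPKβ1-/- vehicle and AMPKβ1-/- PF, as means of the groups. The members lie between 45.15% (Acadl) and 54.14% (Crat) GC, with a median of 51.28% against 50.14% over the tested genes. Each AMPKβ1-/- library had a lower slope than each WT library. The means were lower with PF than with vehicle, but the libraries overlapped. They ran from 0.36 to 0.72 and from -0.052 to 0.37 in WT with vehicle and PF. In AMPKβ1-/- they ran from -0.36 to -0.10 and from -0.51 to -0.33. Each log2 fold change below is therefore followed where it matters by the value after a trend in GC content and length was removed from every library. Which of the 2 values is nearer to the change in the cells cannot be told apart with these libraries.

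The promoter windows of the 2 members whose response to PF kept its direction and its call with that trend removed, and the window of Hadhb, most of which it shares with that of Hadha, are shown for their sequence context. Windows were matched by symbol for 8 of the 9 members in RefSeq on GRCm38.p6, and the member without one is Crat. Each runs from 250 bases before to 50 bases after the RefSeq start, 5′ to 3′ on the gene's strand. That start can differ from the end of the gene span given below, which is from GENCODE M21. The windows of Cpt1a and Etfdh lie within those spans. Capitals mark matches on either strand to 4 motifs. These are the GC box GGGCGG, the box named by its letters CCAAT, the half-site of nuclear receptors AGGTCA, and the E-box CACGTG. In the windows of the members 0 matches overlap another. Cpt1a lies at chr19:3323051-3323350 (+), Etfdh at chr3:79628718-79629017 (-) and Hadhb at chr5:30155003-30155302 (+).
Cpt1a: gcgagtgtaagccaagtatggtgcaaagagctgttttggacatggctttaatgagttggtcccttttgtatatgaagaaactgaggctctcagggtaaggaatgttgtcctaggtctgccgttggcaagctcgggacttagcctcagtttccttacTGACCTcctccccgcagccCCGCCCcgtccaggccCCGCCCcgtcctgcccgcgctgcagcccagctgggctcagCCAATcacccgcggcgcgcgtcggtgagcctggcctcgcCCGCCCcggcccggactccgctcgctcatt
Etfdh: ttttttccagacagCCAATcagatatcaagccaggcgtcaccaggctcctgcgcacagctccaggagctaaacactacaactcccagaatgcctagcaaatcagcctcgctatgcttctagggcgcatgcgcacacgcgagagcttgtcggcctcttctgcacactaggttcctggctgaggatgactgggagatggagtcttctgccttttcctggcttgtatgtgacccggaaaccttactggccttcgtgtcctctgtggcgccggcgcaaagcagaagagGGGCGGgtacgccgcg
Hadhb: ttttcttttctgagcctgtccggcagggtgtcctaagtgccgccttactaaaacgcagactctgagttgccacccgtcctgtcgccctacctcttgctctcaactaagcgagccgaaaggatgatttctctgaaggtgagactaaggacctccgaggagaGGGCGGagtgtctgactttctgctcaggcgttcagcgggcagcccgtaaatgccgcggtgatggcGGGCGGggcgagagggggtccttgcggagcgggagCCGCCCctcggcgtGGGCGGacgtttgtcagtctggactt
The GC box was found in 6 of the 8 windows (Cpt1a, Cpt2, Acadl, Hadha, Hadhb and Etfdh), against 35.7% of the 32851 promoter windows of the same length. The 1 match of Hadha lies in the bases shared with Hadhb and is the same site as 1 of the 4 matches there. The half-site was in 3 (Cpt1a, Acadvl and Acadm), against 16.3% of all, and CCAAT in 2 (Cpt1a and Etfdh), against 37.4%. The E-box was in 0 of the 8, against 7.15%. Such matches describe the letters of a window and do not show a bound factor.

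CPT1A on the outer mitochondrial membrane makes acylcarnitines from long-chain acyl-CoA and is the step that malonyl-CoA inhibits. Its gene spans chromosome 19 from 3322334 to 3385733 on the plus strand (GENCODE M21 on GRCm38, as are the positions that follow). The WT libraries had 208, 198 and 214 CPM with vehicle and 165, 154 and 152 CPM with PF. The AMPKβ1-/- libraries had 227, 217 and 229 CPM with vehicle and 214, 203 and 215 CPM with PF. The 3 WT PF libraries thus lay below each of the other 9, and in both genotypes the PF libraries lay below the vehicle libraries without overlap. In WT the means were 207 ± 8.43 and 157 ± 7.06 CPM (SD, n = 3), and Cpt1a fell by 0.40 (SE 0.069, 95% interval -0.54 to -0.25, edgeR adjusted p = 0.00295). It ranked 116 of 10822 genes by p in that comparison. Its log2 fold change was -0.32 (adjusted p = 0.000681) after removal of the GC and length trend, and the gene passed the test in 21 of 21 alternative fits, with values between -0.43 and -0.32. In AMPKβ1-/- it was -0.088 (SE 0.068, interval -0.23 to 0.056, adjusted p = 0.982).

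CPT2 on the inner membrane turns the acylcarnitines back into acyl-CoA. Its gene lies on chromosome 4 (107903981 to 107923610, minus strand). Cpt2 had 29.4 to 35.1 CPM in WT with vehicle and 28.3 to 33.1 CPM with PF. In AMPKβ1-/- it had 26.8 to 29.1 CPM with vehicle and 26.5 to 28.7 CPM with PF. The treatment groups overlapped in both genotypes, with log2 fold changes of -0.067 in WT (interval -0.28 to 0.14, edgeR adjusted p = 0.644) and -0.045 in AMPKβ1-/- (interval -0.26 to 0.17, adjusted p = 0.985). In WT its sign turned, to 0.051, after removal of the GC and length trend. CRAT exchanges short acyl groups, acetyl groups above all, between CoA and carnitine. Its gene lies on chromosome 2 (30400471 to 30415813, minus strand) and overlaps Dolpp1 on the opposite strand. Crat had 122, 110.1 and 109 CPM in WT with vehicle and 111, 95.4 and 94.6 CPM with PF, so that 1 PF library reached into the vehicle range. With vehicle and PF in AMPKβ1-/- the values were 92.3, 78.5 and 78.3 CPM and 86.1, 86.7 and 82.5 CPM, all below each WT library. The log2 fold change with PF was -0.18 in WT (SE 0.090, edgeR adjusted p = 0.172) and 0.037 in AMPKβ1-/- (adjusted p = 0.985). The value in WT was -0.0031 after removal of the GC and length trend.

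The acyl-CoA dehydrogenases start each cycle and differ in the chain length that they prefer, from very long (ACADVL) over long (ACADL) to medium (ACADM). Acadl lies on chromosome 1 (66830839 to 66863277, minus strand). It had 49.7, 54.8 and 52.5 CPM in WT with vehicle and 67.2, 63.6 and 65.3 CPM with PF. In AMPKβ1-/- it had 43.5, 57.0 and 54.1 CPM with vehicle and 55, 54.4 and 49.6 CPM with PF. The WT PF libraries lay above each of the other 9. Acadl rose by 0.32 in WT (SE 0.098, interval 0.11 to 0.53, edgeR adjusted p = 0.0393). That call was lost in 10 of 21 alternative fits. The fold change was 0.0085 (adjusted p = 0.968) after removal of the GC and length trend. Leaving out WT vehicle library 1 or 3 gave an adjusted p of 0.124 or 0.0882, leaving out WT PF library 2 or 3 gave 0.0881 or 0.11, leaving out AMPKβ1-/- vehicle library 3 gave 0.0508, and leaving out AMPKβ1-/- PF library 1, 2 or 3 gave 0.0542, 0.0534 or 0.051. With the libraries of the comparison alone it was 0.0688.

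Acadm (chromosome 3, 153922357 to 153944632, minus strand) had 37.2, 44.1 and 42.0 CPM in WT with vehicle and 45.0, 49.9 and 54.5 CPM with PF. The AMPKβ1-/- values were 49.5, 56.3 and 60.2 CPM with vehicle and 62.4, 60.2 and 60.6 CPM with PF. The WT groups did not overlap, but the adjusted p of the log2 fold change of 0.28 (SE 0.10) was 0.0682 with edgeR. It was 0.0235 without WT PF library 1 and 0.0487 with library size as the scale, and the log2 fold change was 0.16 (adjusted p = 0.251) after removal of the GC and length trend. Acadvl (chromosome 11, 70010183 to 70015411, minus strand, overlapping Dvl2 on the other strand) went the other way in value. It had 141, 124 and 127 CPM in WT with vehicle, and 122, 109 and 103 CPM with PF. In AMPKβ1-/- it had 104, 88.7 and 96.3 CPM with vehicle and 88.3, 95.3 and 88.3 CPM with PF. These WT groups did not overlap either, with a log2 fold change of -0.23 (SE 0.088, edgeR adjusted p = 0.0761), which was -0.088 after removal of the GC and length trend. Without WT PF library 1 the adjusted p was 0.0234 for Acadvl and 0.0453 for Crat.

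HADHA and HADHB are the α and β subunits of the mitochondrial trifunctional protein, which carries out the last steps of the cycle on long chains. Their genes lie head to head on chromosome 5, Hadha from 30118304 to 30155162 on the minus strand and Hadhb from 30155248 to 30184593 on the plus strand. The RefSeq starts, at 30154980 and 30155253, have 272 bases between them, and the promoter windows share 228 bases. Hadha had 260.2, 241 and 239.9 CPM in WT with vehicle and 241, 230.0 and 215 CPM with PF, against 179.5, 174 and 187 CPM with vehicle and 187, 185 and 180.1 CPM with PF in AMPKβ1-/-. Every AMPKβ1-/- library lay below every WT library. The log2 fold change of Hadha with PF was -0.11 in WT (interval -0.26 to 0.037, edgeR adjusted p = 0.258) and 0.031 in AMPKβ1-/- (interval -0.12 to 0.18, adjusted p = 0.985). Hadhb spread more, from 59.2 to 74.2 CPM and from 66.8 to 77.1 CPM in WT with vehicle and PF, and from 47.8 to 70.6 CPM and from 57.8 to 69.2 CPM in AMPKβ1-/-. All its groups overlapped. Its log2 fold change with PF was 0.12 in WT (interval -0.16 to 0.40, edgeR adjusted p = 0.519), or -0.17 after removal of the GC and length trend.

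ETFDH in the inner membrane passes the electrons of all acyl-CoA dehydrogenases to ubiquinone. Its gene lies on chromosome 3 (79603788 to 79629500, minus strand) and overlaps 4930579G24Rik on the opposite strand. The WT libraries had 20.4, 22.7 and 24.2 CPM with vehicle and 29.4, 30.4 and 33.2 CPM with PF. The AMPKβ1-/- libraries had 27.8, 32.9 and 33.4 CPM with vehicle and 33.2, 29.9 and 31.7 CPM with PF. The WT vehicle libraries lay below each of the other 9, and the other 3 groups overlapped. Etfdh rose by 0.47 in WT (SE 0.11, interval 0.24 to 0.69, edgeR adjusted p = 0.0128), a fold of 1.38. The log2 fold change was 0.31 (adjusted p = 0.0337) after removal of the GC and length trend, but leaving out WT vehicle library 1 or WT PF library 3 raised the adjusted p to 0.0556 or 0.0621. In AMPKβ1-/- it was 0.0093 (SE 0.10, interval -0.21 to 0.23, adjusted p = 0.992).

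**Figure D1:**
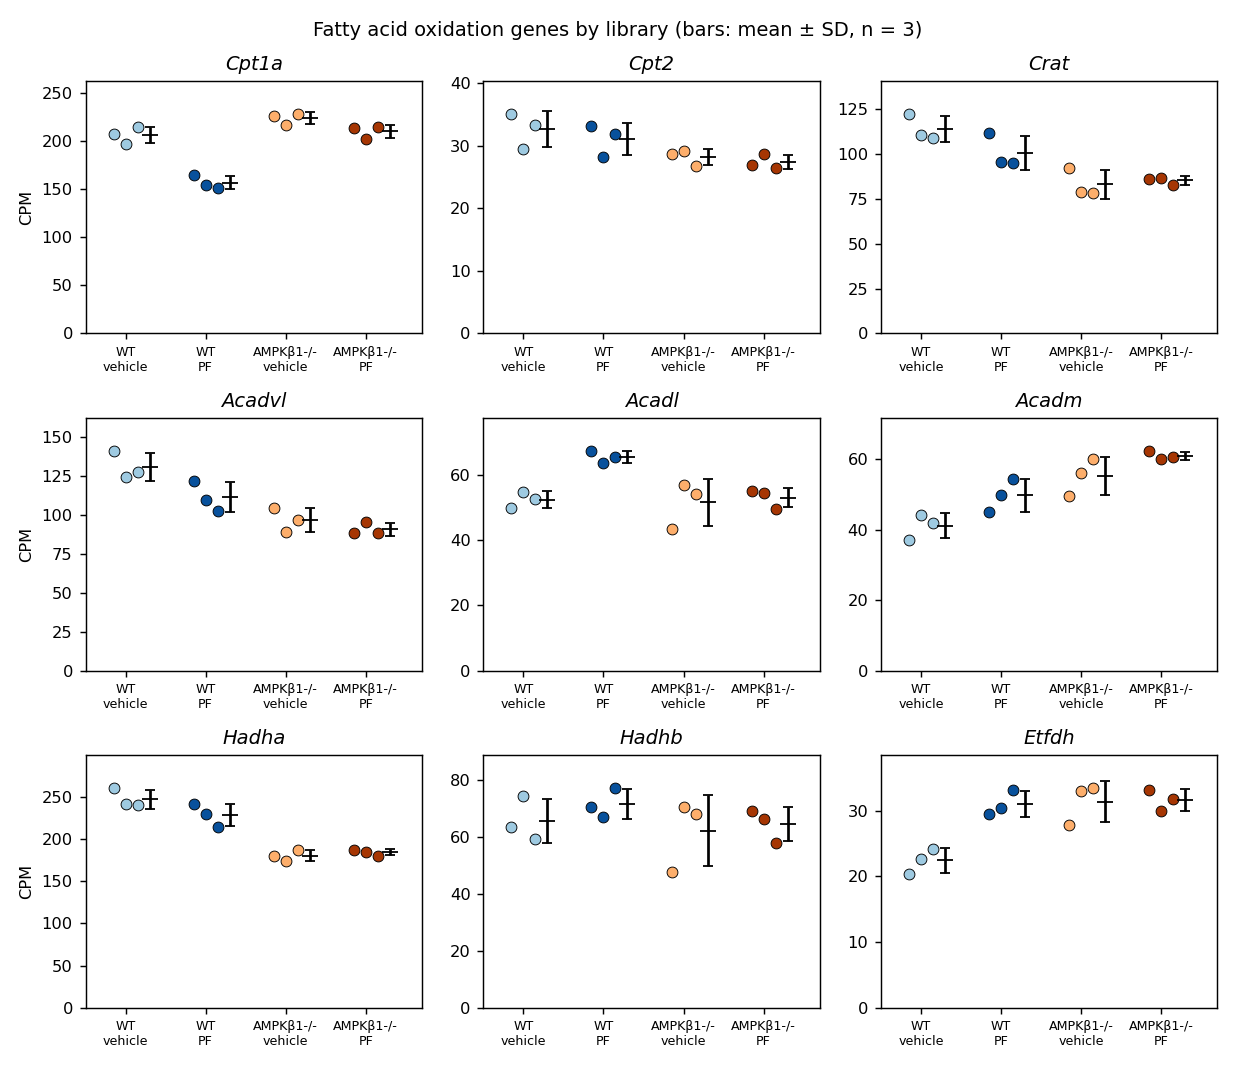
Level in CPM (linear axis from 0) of each of the 9 genes in the 3 libraries of WT vehicle, WT PF, AMPKβ1-/- vehicle and AMPKβ1-/- PF. Points are libraries, bars are the mean ± SD of a group. The WT PF libraries of Cpt1a, at 152 to 165 CPM, lie below all others, and the WT vehicle libraries of Etfdh, at 20.4 to 24.2 CPM, do so too.

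As a group, the members showed no common direction with PF in WT: 2 rose, against 6.99% of all tested genes, 1 fell, against 8.95%, and 6 did not pass. The vehicle and PF libraries of WT did not overlap for 3 that were higher with PF (14.2% of all genes) and 2 that were lower (18.1%). The median log2 fold change of the 9 was -0.067, beside 0.0048 over all tested genes. After removal of the GC and length trend, 1 rose (3.33% of all genes) and 1 fell (3.95%), which were Etfdh and Cpt1a. The summed level of the 9 in WT was 912 ± 21.3 CPM (SD, n = 3) in the vehicle group and 846 ± 33.4 CPM in the PF group, and in AMPKβ1-/- it was 812 ± 18.2 and 808 ± 15.2 CPM.

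In AMPKβ1-/- BMDMs the log2 fold changes with PF ran from -0.088 (Cpt1a) to 0.14 (Acadm), with a median of 0.031 beside -0.0040 over all tested genes. By edgeR, 0 rose (0.0554% of all genes) and 0 fell (0% of all genes), and 0 of the 9 had an unadjusted p below 0.05, against 4.98% of all genes. After removal of the GC and length trend 0 rose (0.0277%) and 0 fell (0%) as well. DESeq2 and limma-voom also gave 0 calls. The PF libraries lay below the vehicle libraries for 1 of the 9, Cpt1a (6.28% of all genes), and above them for 0 (8.21%).

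The difference between the genotypes' responses was tested as an interaction in the same fit. It passed for 0 of the 9, against 0.416% of all tested genes, and 2 had an unadjusted p below 0.05, against 14.3% of all genes. DESeq2 and limma-voom gave 0 calls too. These 2 were Cpt1a, with a difference of -0.31 (WT minus AMPKβ1-/-, log2, SE 0.097, interval -0.51 to -0.10, edgeR adjusted p = 0.173), and Etfdh, with 0.46 (SE 0.15, interval 0.14 to 0.77, adjusted p = 0.187). Over the alternative fits the adjusted p ran from 0.07 to 0.416 for Cpt1a and from 0.0844 to 0.439 for Etfdh. For Acadl the difference was 0.28 (interval -0.013 to 0.58, adjusted p = 0.368), or 0.034 after removal of the GC and length trend. The responses of the 9 genes are thus not shown to differ between WT and AMPKβ1-/- after adjustment over all genes.

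**Figure D2:**
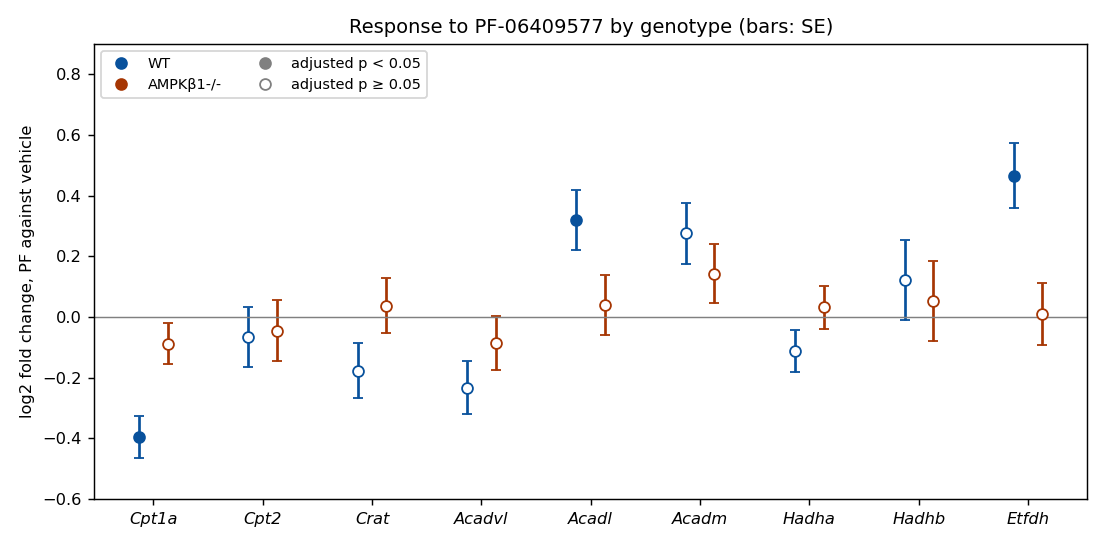
Log2 fold change of PF against vehicle for each gene in WT and in AMPKβ1-/- BMDMs (edgeR, bars are SE, 3 libraries in each group). Filled points passed an adjusted p of 0.05, which were Cpt1a (-0.40), Acadl (0.32) and Etfdh (0.47) in WT. In AMPKβ1-/- the points lie between -0.088 and 0.14.

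The comparison of AMPKβ1-/- with WT given vehicle describes the difference between the genotypes without the drug. The part of the β1 subunit cannot be told apart there from differences between marrow donors or cultures, whose numbers are not given. With vehicle, 2 of the 9 were higher in AMPKβ1-/-, against 29.7% of all tested genes, and 3 were lower, against 30% of all genes. The shares of the members were close to those of all genes in this fit, but not with the GC and length trend removed, as given below. Macrophage markers also differed between these groups, as given above, and their part in the result was not tested. Hadha was lower by a log2 value of -0.46 (SE 0.071, edgeR adjusted p = 0.000138), Crat by -0.45 (SE 0.091, adjusted p = 0.000687) and Acadvl by -0.44 (SE 0.088, adjusted p = 0.000659). Acadm was higher by 0.43 (SE 0.10, adjusted p = 0.0020) and Etfdh by 0.48 (SE 0.11, adjusted p = 0.00132). Libraries did not overlap for 3 genes that were higher (30.9% of all genes), with Cpt1a as the other one, and for 4 that were lower (32%), with Cpt2 as the other one. The median over the 9 was -0.080, beside -0.026 over all tested genes.

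Several of these values moved with the GC and length trend. With it removed, Acadvl had -0.12 (edgeR adjusted p = 0.12) and no longer passed. Crat moved from -0.45 to -0.24 (adjusted p = 0.00966) and Etfdh from 0.48 to 0.32 (adjusted p = 0.00672), and both still passed. Acadl moved from -0.022 to -0.44 (adjusted p = 0.000589), Hadhb from -0.080 to -0.47 (adjusted p = 0.000788) and Cpt1a from 0.12 to 0.20 (adjusted p = 0.00672), and all of them then passed. In that fit 3 of the 9 were higher (13.9% of all genes) and 4 lower (20.2%), so that the shares of the members were above those of all genes. Hadha had -0.35 and Hadhb -0.47 there, where they had -0.46 and -0.080 without the correction. Acadl and Hadhb have the lowest GC contents of the 9 (45.15% and 45.41%). With library size alone as the scale, the median of all tested genes moved to 0.18, and the values of Acadl and Hadhb turned to 0.19 and 0.13. Hadha, Crat, Acadm and Etfdh kept direction and call in 21 of 21 alternative fits of this comparison.

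With PF in both genotypes, 2 of the 9 were higher in AMPKβ1-/-, against 24.1% of all tested genes, and 4 lower, against 22.9%. This comparison shares its WT and AMPKβ1-/- PF libraries with the comparisons above. Of the 8 macrophage markers, 2 were higher and 2 lower in AMPKβ1-/- here by edgeR. With the GC and length trend removed, 5 were higher (16.2% of all genes) and 2 lower (21.8%). The part of these markers in the result was not tested. Cpt1a was higher by 0.42 (SE 0.069, edgeR adjusted p = 0.000209), or 0.45 after removal of the GC and length trend (adjusted p = 2.85e-06), and passed in 21 of 21 alternative fits. Hadha was lower by -0.31 (SE 0.071, adjusted p = 0.00234), or -0.25 with the trend removed, and also passed in 21 of 21. Etfdh, which differed with vehicle, had 0.027 (interval -0.19 to 0.25, adjusted p = 0.853) with PF. The same groups did not overlap for 2 genes that were higher (29.9% of all genes) and 4 that were lower (30% of all genes). After removal of the GC and length trend 2 were higher (16.2%) and 3 lower (21.8%), which were Cpt1a and Acadm, and Acadl, Hadha and Hadhb.

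The remaining calls with PF were less stable. Acadl was lower by -0.30 (edgeR adjusted p = 0.0184), but had an adjusted p of 0.227 with library size alone and 0.0522 and 0.0836 without WT PF library 1 or AMPKβ1-/- PF library 3. Acadm was higher by 0.29 (adjusted p = 0.0229), with 0.099 and 0.0591 without WT PF library 1 or 2 and 0.0719 and 0.0543 without AMPKβ1-/- PF library 1 or 3. Acadvl was lower by -0.29 (adjusted p = 0.0126), with 0.262 when the GC and length trend was removed, 0.116 with library size alone, and 0.065, 0.0512 and 0.0504 without WT PF library 1 or AMPKβ1-/- PF library 1 or 3. Crat was lower by -0.24 (adjusted p = 0.0401) and lost the call in 10 of 21 alternative fits, among them those without WT PF library 1 (adjusted p = 0.188) and without AMPKβ1-/- PF library 1, 2 or 3 (0.0846, 0.0706 and 0.122). With library size alone the median of all tested genes in this comparison was 0.15.

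**Figure D3:**
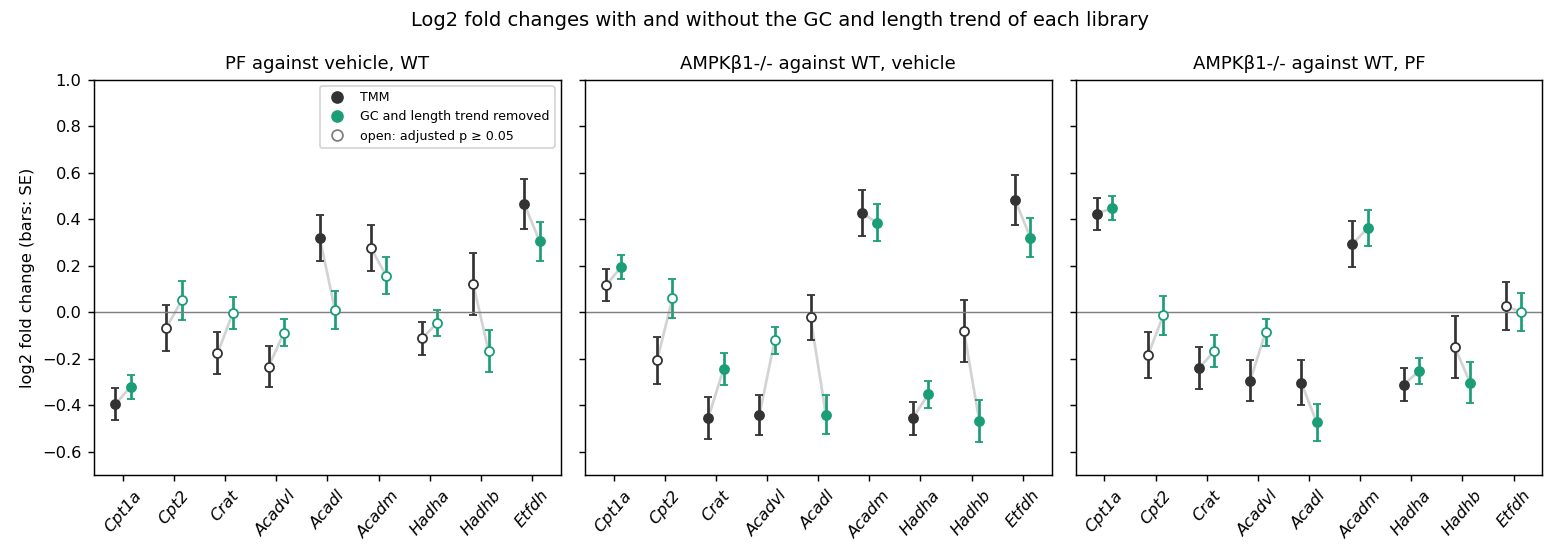
Log2 fold change and SE of the 9 genes in 3 comparisons with TMM scaling (dark) and after removal of a trend in GC content and length from each library (green), where open points have an adjusted p of 0.05 or more. Cpt1a and Etfdh keep their calls for PF in WT, Acadl moves from 0.32 to 0.0085, and Acadl and Hadhb move to -0.44 and -0.47 between genotypes with vehicle.

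Levels of different genes can be compared only per length, here as CPM per kilobase of the longest coding transcript. In WT with vehicle the order was Hadha (61.5 ± 2.85), Acadvl (60.3 ± 4.10), Cpt1a (47.9 ± 1.95), Hadhb (32.1 ± 3.76), Acadl (27.3 ± 1.34), Crat (26.9 ± 1.74), Acadm (20.1 ± 1.73), Cpt2 (13.8 ± 1.21) and Etfdh (9.44 ± 0.798). Hadha and Acadvl, and Acadl and Crat, differed by less than their SD. In AMPKβ1-/- with vehicle Cpt1a led the order (51.9 ± 1.46), ahead of Hadha (44.9 ± 1.70) and Acadvl (44.4 ± 3.54), and Etfdh (13.2 ± 1.31) stood above Cpt2 (11.9 ± 0.513), with libraries that overlapped. In WT with PF, Cpt1a (36.4 ± 1.64) came after Hadha (56.9 ± 3.30) and Acadvl (51.3 ± 4.48) and near Hadhb (34.9 ± 2.54) and Acadl (34.1 ± 0.938). The transcript taken for Crat, of 4224 bases, is the longest of 9 coding ones, so its level per kilobase would be higher for a shorter form.

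Within groups, members deviated together in a pattern that ran along GC content. Over the 12 libraries, with the mean of each group subtracted, the deviations in log2 CPM had a Pearson r of 0.90 for Acadl and Hadhb, 0.88 for Crat and Acadvl and 0.87 for Acadm and Etfdh, and of -0.89 for Crat and Acadm. These genes share libraries and differ in GC content, and the r is a description with no test. The deviations of Acadvl and Crat had an r of 0.94 and 0.84 with those of the GC slope of the library, and those of Acadm and Etfdh of -0.94 and -0.83. Of the 36 pairs, 16 had an r above 0. Hadha and Hadhb, whose promoter windows share 228 bases, had an r of -0.088. After removal of the GC and length trend it was 0.53, 21 of the 36 pairs were above 0, and the r ran from -0.75 to 0.68. Acadl and Hadhb then had 0.58, Crat and Acadvl 0.68, and Acadm and Etfdh 0.66. Acadl and Acadm moved from 0.57 to -0.54 with the same correction.

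**Figure D4:**
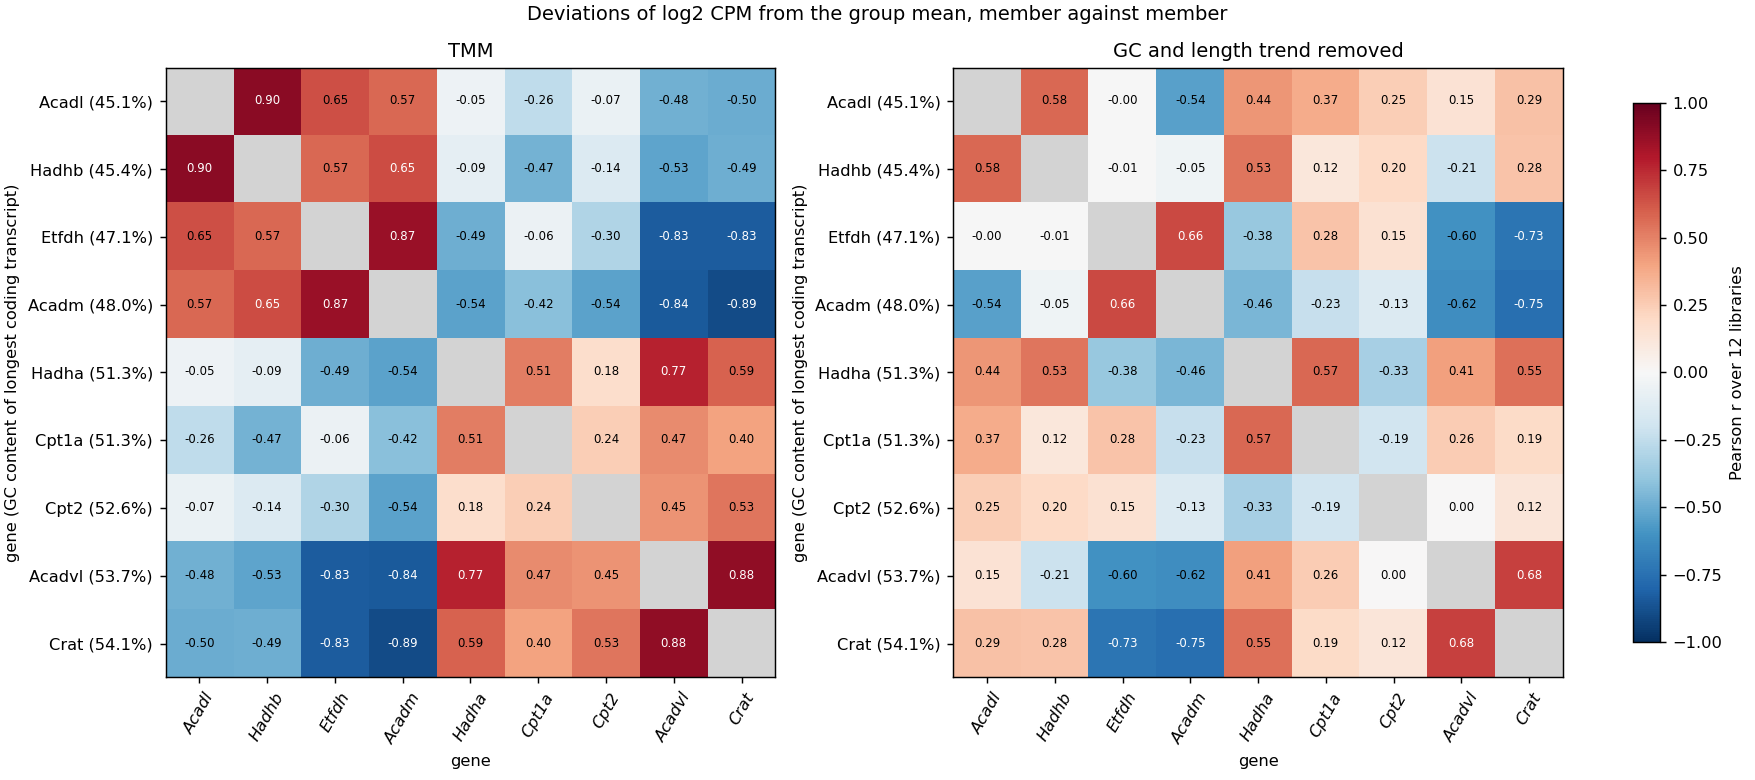
Pearson r between genes of the deviations of log2 CPM from the group mean over 12 libraries, with TMM scaling (left) and after removal of the GC and length trend (right), ordered by the GC content of the transcript. On the left the genes of lower and of higher GC content form separate blocks, with Acadl and Hadhb at 0.90 and Crat and Acadvl at 0.88. On the right Hadha and Hadhb move from -0.088 to 0.53, and Acadl and Acadm from 0.57 to -0.54.

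The 5 tested genes outside the list whose log2 CPM followed the mean standardized level of the members best over the 12 libraries, group differences included, were Bambi-ps1 (r = 0.94), Cisd1 (0.93), Snx1 (0.92), Decr2 (0.92) and Tmem159 (0.92). CISD1 is an iron-sulphur protein of the outer mitochondrial membrane, and DECR2 a peroxisomal reductase of unsaturated acyl-CoA. The members themselves share no single profile over these libraries. The r of log2 CPM was -0.97 for Acadm and Acadvl and 0.96 for Crat and Acadvl.

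The rest of the pathway was followed in 6 lists of neighbouring genes, of which 56 of 62 genes were tested. The lists were written with earlier results of these data known, so their shares beside those of all genes are descriptions. In WT with PF, 9 of the 56 rose and 6 fell by edgeR, beside 6.99% and 8.95% of all genes, with a median log2 fold change of 0.057. Of 11 tested genes of the carnitine shuttle and acyl-CoA activation, 2 rose and 1 fell. Acsl3, an acyl-CoA synthetase, rose from 6.29 ± 1.73 to 10.4 ± 1.35 CPM (log2 fold change 0.73, adjusted p = 0.0197), and Acot9, a mitochondrial thioesterase, from 23 ± 0.637 to 29.0 ± 1.11 CPM (0.34, adjusted p = 0.0321). Cpt1c, the brain form of CPT1, fell from 2.32 ± 0.335 to 1.05 ± 0.35 CPM (-1.11, adjusted p = 0.0412). The call of Cpt1c was lost in 11 of 20 alternative fits, among them the DESeq2 test (adjusted p = 0.0653). Those of Acsl3 and Acot9 were each lost in 6 of 21. After removal of the GC and length trend 0 of these 11 passed by edgeR, where 3.33% of all genes rose and 3.95% fell.

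Of 13 other genes of mitochondrial β-oxidation, 2 rose (6.99% of all genes) and 1 fell (8.95%) in WT with PF. Etfa, the α subunit of the electron carrier that hands electrons to ETFDH, rose from 18.7 ± 3.53 to 28.1 ± 4.03 CPM (log2 fold change 0.59, edgeR adjusted p = 0.0194). Decr1, the mitochondrial 2,4-dienoyl-CoA reductase, rose from 22.6 ± 2.89 to 28.9 ± 0.599 CPM (0.35, adjusted p = 0.0404). Acads, the dehydrogenase for short chains, fell from 120.0 ± 11.0 to 95.5 ± 11.1 CPM (-0.33, adjusted p = 0.0354). The calls of Etfa, Decr1 and Acads were lost in 5, 11 and 7 of 21 alternative fits. After removal of the GC and length trend their values were 0.22, 0.026 and -0.081, and all 3 calls were lost. In that fit Acaa2, the 3-ketoacyl-CoA thiolase, was the 1 of the 13 that passed, as lower (3.95% of all genes). Between genotypes with vehicle, 2 of the 13 were higher (29.7% of all genes) and 8 lower (30% of all genes) in AMPKβ1-/-, with a median of -0.39 beside -0.026 over all tested genes. With the trend removed 1 was higher (13.9% of all genes) and 7 lower (20.2%), with a median of -0.21. The subunits of the electron carrier, named after their values were seen, stood on opposite sides there, with 0.82 for Etfa and -0.76 for Etfb, or 0.41 and -0.30 with the trend removed.

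Of 14 tested peroxisomal genes, 1 rose (6.99% of all genes) and 2 fell (8.95%) in WT with PF. Abcd3, a transporter of branched and dicarboxylic acyl groups into peroxisomes, rose from 17 ± 2.96 to 27.3 ± 4.31 CPM (log2 fold change 0.68, edgeR adjusted p = 0.0137), and its value was 0.36 after removal of the GC and length trend, where it kept the call. Acaa1a, a peroxisomal thiolase that can share reads with its close copy Acaa1b, fell from 309 ± 24.9 to 239 ± 31.2 CPM (-0.37, adjusted p = 0.0238) and lost the call in that fit (adjusted p = 0.177). The calls of Abcd3 and Acaa1a were lost in 2 and 6 of 21 alternative fits. Of the genes of malonyl-CoA control, 0 of the 2 tested passed by edgeR; with the trend removed 0 passed as well. Of 8 genes of ketone and odd-chain use, 1 rose and 0 fell. This was Oxct1, which activates ketone bodies to CoA esters, from 60.01 ± 7.59 to 88.2 ± 13.8 CPM (0.56, adjusted p = 0.011, or 0.43 with the trend removed). Its call was lost in 2 of 21 alternative fits.

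Of 8 tested targets of PPAR receptors outside β-oxidation, 3 rose (6.99% of all genes) and 2 fell (8.95%) in WT with PF. The same numbers passed after removal of the GC and length trend, where 3.33% of all genes rose and 3.95% fell. As this list was written with earlier results of these data known, these shares are no test of PPAR targets as a set. The lipid-binding proteins Fabp5, Fabp4 and Fabp3 rose, Fabp5 from 319 ± 30.5 to 583 ± 23.7 CPM (log2 fold change 0.87, edgeR adjusted p = 7.23e-05), Fabp4 by 1.23 (adjusted p = 0.00259) and Fabp3 by 0.53 (adjusted p = 0.0419). With the trend removed Fabp5 had 0.49, Fabp4 0.62 and Fabp3 0.55. The call of Fabp3 was lost in 12 of 21 alternative fits, with adjusted p of up to 0.141 over them, among them the DESeq2 test (0.0589), the libraries of the comparison alone (0.106), and those without WT vehicle library 1 or 3 (0.134 and 0.11), WT PF library 1, 2 or 3 (0.0634, 0.0623 and 0.141), AMPKβ1-/- vehicle library 2 or 3 (0.0566 and 0.0535) or AMPKβ1-/- PF library 1, 2 or 3 (0.0594, 0.0513 and 0.0519). In AMPKβ1-/- the log2 fold change of Fabp3 with PF was 0.56 (adjusted p = 0.535), and the difference between the genotypes was -0.028 (adjusted p = 0.966). Ucp2, a mitochondrial carrier, fell from 2073 ± 235 to 1327 ± 71.6 CPM (-0.64, adjusted p = 0.00073), and Angptl4, an inhibitor of lipoprotein lipase, from 6.63 ± 1.20 to 2.60 ± 0.477 CPM (-1.33, adjusted p = 0.00129). The list held rises and falls side by side, as did the members. In AMPKβ1-/- with PF, 0 of the 56 list genes rose (0.0554% of all genes) and 0 fell (0%) by edgeR. With the trend removed 0 rose (0.0277%) and 0 fell (0%) as well. Between genotypes with vehicle 14 of the 56 were higher (29.7% of all genes) and 23 lower (30% of all genes) in AMPKβ1-/-. With the trend removed 4 were higher (13.9%) and 17 lower (20.2%).

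**Figure D5:**
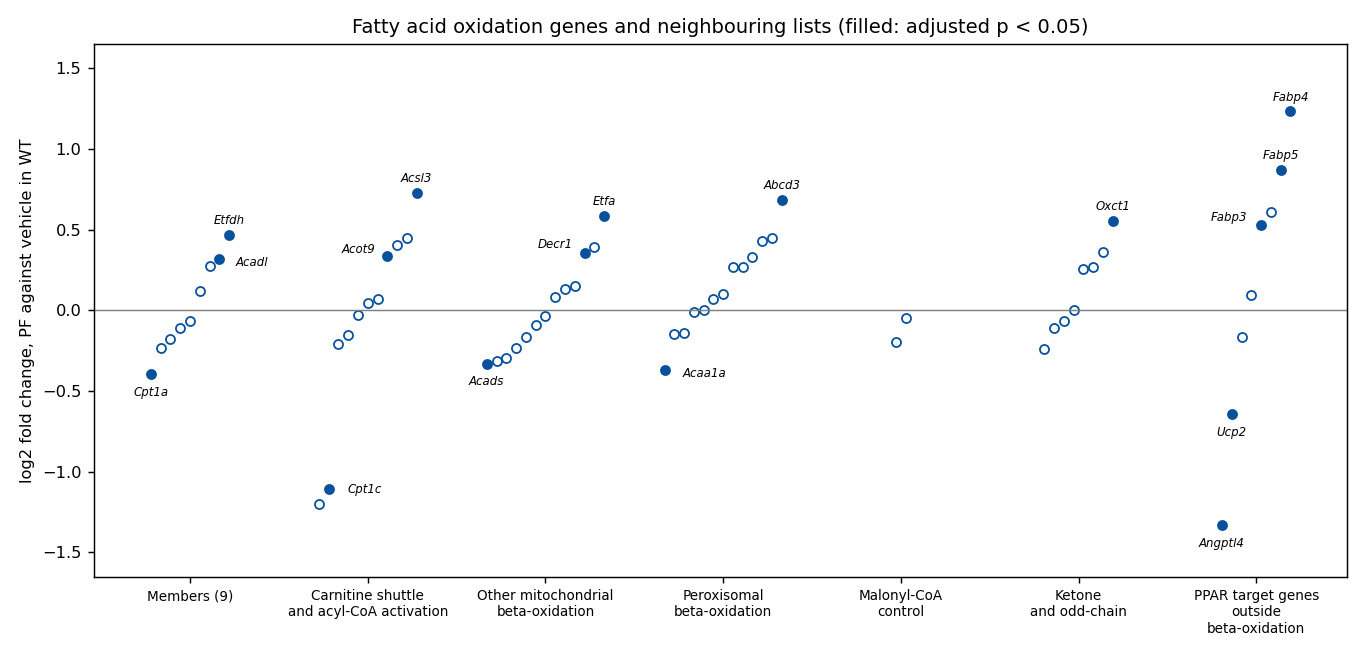
Log2 fold change of PF against vehicle in WT for the 9 genes and for the tested genes of 6 neighbouring lists but 1, each point a gene and filled where the adjusted p was below 0.05. Of the 9, Cpt1a lies at -0.40, Acadl at 0.32 and Etfdh at 0.47, and every list with a filled point but the one of ketone and odd-chain genes has them on both sides of 0.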

How the data were processed

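RNA of 12 BMDM libraries, made with a directional kit, was sequenced in 4 groups of 3. The authors used Trim Galore and then Salmon, and the deposited values are estimated counts of each gene as whole numbers, without normalization. The genome build and the versions, strand setting and bias options of Salmon are not given in the sources used here. Groups came from the labels, and columns were matched to groups by name. The 9 genes and the lists were chosen with earlier results of these data known.

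The tests ran in edgeR 4.0.16 under R 4.3.3 (TMM, filterByExpr by group, robust quasi-likelihood test), in 1 fit of 4 group means to all libraries, with a prior count of 2 for log2 CPM. SE are approximate, from the F statistic and the fold change. GC content and length came from GENCODE M21 on GRCm38 (12703 genes matched by symbol, 198 by an older symbol or Entrez ID, 59 not matched), and their trend was removed from each library as an offset from natural splines with 5 degrees of freedom. Alternatives were DESeq2 (1.42.0) size factors or test, limma-voom (limma 3.58.1), upper quartile scaling, library size alone, no low-count filter, a filter of at least 10 counts in each library, the libraries of a contrast alone, each library left out in turn, a replicate block on the number in the column name, and the DEG threshold of the study's methods. From the lists, genes that passed in WT with PF, in AMPKβ1-/- with PF or in the interaction were named, up to 8 a list by smallest p; 1 peroxisomal gene is counted but not reported here. Scripts were tested on simulated data.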

Additional observations from a re-analysis of the deposited data

Results flagged for a closer look

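Outside the 9 genes, 2 of the 56 tested list genes passed the test of the difference between the responses of WT and AMPKβ1-/- BMDMs to PF. This was by edgeR, adjusted over all genes, of which 0.416% passed. Both are from the list of PPAR targets, which was written with earlier results of these data known. With the GC and length trend removed Angptl4, another such target, passed as well (-1.14, edgeR adjusted p = 0.0227). Without that correction it had -1.16 (adjusted p = 0.07). The share of 0.416% is from the fit without the correction, and the share of all genes with it is not given here. With a replicate block on the column number, 75 genes were higher and 78 lower with the trend removed, against 16 and 31 without its removal. For Fabp5 the difference, WT minus AMPKβ1-/-, was 0.90 on the log2 scale (SE 0.12, adjusted p = 0.00471), with 319 ± 30.5 and 583 ± 23.7 CPM in WT with vehicle and PF and 192 ± 13.1 and 188 ± 4.92 CPM in AMPKβ1-/-. It passed in 20 of 20 alternative fits, with values of 0.55 (GC and length trend removed) to 0.96. For Ucp2 the difference was -0.60 (SE 0.12, adjusted p = 0.0417), with 2073 ± 235 and 1327 ± 71.6 CPM in WT and 1471 ± 89.4 and 1426 ± 11.3 CPM in AMPKβ1-/-. It lost its call in 10 of 20 alternative fits, with adjusted p between 0.00125 and 0.17 over them. The lost calls were those with DESeq2 size factors (0.0511) and without WT vehicle library 1 or 2 (0.0756 and 0.0572), WT PF library 2 or 3 (0.121 and 0.105), AMPKβ1-/- vehicle library 2 or 3 (0.17 and 0.142) or AMPKβ1-/- PF library 1, 2 or 3 (0.133, 0.126 and 0.129).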

How the results depend on the processing

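Over the members' log2 fold changes in the 5 comparisons, 855 alternative values kept direction and side of the threshold, 35 lost the threshold, 11 gained it and 35 changed sign, and 0 of those with a changed sign had passed the test at first. At the DEG threshold of the study's methods, 0 members were called in any comparison. For PF in WT, 1 member rose with the GC and length trend removed and 1 with the libraries of the contrast alone, and leaving out 1 library gave 0 to 3 that rose and 1 to 3 that fell. For AMPKβ1-/- against WT with PF, library size alone left 1 that was lower, and leaving out 1 library gave 1 to 2 that were higher and 1 to 4 that were lower. Signs changed as follows. With the trend removed, PF in WT gave 0.051 for Cpt2 and -0.17 for Hadhb, PF in AMPKβ1-/- -0.025 for Acadl, -9e-04 for Hadhb and -0.015 for Etfdh, the interaction 0.073 for Cpt2 and -0.16 for Hadhb, and AMPKβ1-/- against WT with vehicle 0.061 for Cpt2. With library size alone, Cpt2 had 0.015 for PF in WT, 0.042 for the interaction and 0.0048 between genotypes with vehicle, where Acadl had 0.19 and Hadhb 0.13. Upper quartile scaling gave 0.011 for Cpt2 in the interaction and 0.035 for Acadl between genotypes with vehicle, and at least 10 counts in every library 0.0027 for Acadl there. Leaving out 1 library gave, for PF in AMPKβ1-/-, -0.0037 to 0.12 for Crat, -0.069 to 0.12 for Acadl, -0.10 to 0.16 for Hadhb and -0.069 to 0.054 for Etfdh, for the interaction, -0.091 to 0.042 for Cpt2 and -0.038 to 0.22 for Hadhb, for AMPKβ1-/- against WT with vehicle, -0.10 to 0.086 for Acadl and -0.19 to 0.076 for Hadhb, and with PF, -0.010 to 0.082 for Etfdh. The cause was not tested. The alternatives of the list genes other than library size alone and the GC and length trend were added after the data were seen. Of 314 alternative values of the list genes that passed for PF in WT, 246 kept their call, 68 lost it and 0 changed sign. The column names of the counts end in 1 to 3 in each group, which the labels do not repeat. Same-numbered libraries of WT vehicle and WT PF had correlations of their deviations from the group means of 0.317, -0.006 and 0.12 over 10822 genes, and those of AMPKβ1-/- -0.17, -0.134 and 0.077, and not every library correlated best with its own number, so the numbers were not taken to pair the libraries. With the number as a replicate block, added after the data were seen and not counted above, 889 genes rose and 1094 fell for PF in WT, against 756 and 969 without it, and for PF in AMPKβ1-/- 0 rose, against 6. Acadm then passed (0.28, edgeR adjusted p = 0.0472), so that 3 members rose, and no other call of a member changed in the 5 comparisons. With the replicate block and the trend removed together 1 member rose for PF in WT, Acadl having 0.0064 there, and signs changed for Cpt2 (0.05) and Hadhb (-0.16) for PF in WT, Acadl (-0.027), Hadhb (-0.0022) and Etfdh (-0.015) for PF in AMPKβ1-/-, Cpt2 (0.073) and Hadhb (-0.16) in the interaction, and Cpt2 (0.063) between genotypes with vehicle.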
